A study of Mus musculus with 6 samples.

Results

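MHC class II antigen presentation was followed through 10 genes in macrophages (MPs) sorted from regenerating mouse muscle with or without myeloid Cripto. The genes were H2-Aa, H2-Ab1 and H2-Eb1, H2-DMa, H2-DMb1 and H2-DMb2, Cd74, Ciita, Cd86 and Cd83, taken by symbol from a list. All 10 were found among the 13008 genes of the deposited table. RNA-seq was performed on 3 Control and 3 Cripto KO samples of F4/80+/Ly6C-low MPs, which were isolated by FACS at day 5 after cardiotoxin injury of the tibialis anterior, gastrocnemius and quadriceps. All mice were C57BL/6J males aged 3 months according to the labels. The labels give the Control genotype as wild type, whereas the methods describe the sorted Control cells as GFP+ cells of Tg:LysMCre::R26mTmG mice, so that Controls would carry the Cre driver and the reporter too. The Cripto KO samples are labelled Tg:LysMCre::Cripto-/-. In these mice Cre is driven by the lysozyme M gene and deletes a floxed Cripto in the myeloid lineage as a whole, not in Ly6C-low MPs alone. The paper reports that the deletion was incomplete among all MPs, and more efficient but not full in sorted GFP+ cells. Samples called Cripto KO may therefore include cells that kept Cripto. The comparison asked how loss of Cripto changes the expression profile of these MPs, and here it was read for the class II genes.

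MHC class II molecules are pairs of an alpha and a beta chain that carry peptides from ingested proteins to the cell surface, where CD4+ T cells read them. In the endosome the invariant chain Cd74 fills the groove until H2-DM exchanges its last fragment for a peptide. Transcription of all these chains depends on Ciita, a coactivator that has no DNA binding of its own and is recruited by factors on a conserved X box and Y box upstream of the genes. MPs carry class II after interferon-gamma or in resident states, while dendritic cells and B cells carry it constitutively.

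The promoters are shown as background to the X box and Y box. Their part in how the class II chains moved from sample to sample, described after them, was not tested. RefSeq promoter sequence on GRCm38.p6 was matched for 5 of the 10 genes, and not for H2-Ab1, Cd74, Ciita, Cd86 and Cd83. The 160 bases before the start site, 5′ to 3′ on the strand of the gene, are given for the 4 genes with a motif match. Capitals mark, in this order, the X box core AACNGATG or, in H2-Aa, the cyclic AMP response element TGACGTCA, and then the Y box core TGATTGG.
H2-Eb1 (chr17:34305707-34305866, plus strand): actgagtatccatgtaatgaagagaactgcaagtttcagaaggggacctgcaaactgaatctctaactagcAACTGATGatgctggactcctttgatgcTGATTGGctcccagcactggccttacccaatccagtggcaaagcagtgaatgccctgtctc
H2-Aa (chr17:34287824-34287983, minus strand): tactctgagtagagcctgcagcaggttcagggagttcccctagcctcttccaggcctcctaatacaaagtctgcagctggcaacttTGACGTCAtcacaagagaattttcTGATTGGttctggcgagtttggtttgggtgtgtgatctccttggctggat
H2-DMb1 (chr17:34153031-34153190, plus strand): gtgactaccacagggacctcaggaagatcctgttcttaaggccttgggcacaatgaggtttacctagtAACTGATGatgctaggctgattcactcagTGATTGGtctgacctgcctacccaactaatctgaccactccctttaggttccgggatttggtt
H2-DMb2 (chr17:34145089-34145248, plus strand): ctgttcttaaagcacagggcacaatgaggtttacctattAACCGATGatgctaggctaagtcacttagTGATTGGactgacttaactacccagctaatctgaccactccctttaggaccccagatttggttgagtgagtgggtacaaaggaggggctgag

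The motif letters were chosen with these promoters in view, so the matches describe the sequences and test nothing. Positions count back from the base before the start site, to the first letter of the motif. The X box core lay at -89 and the Y box core at -61 in H2-Eb1, at -92 and -63 in H2-DMb1, and at -121 and -92 in H2-DMb2. H2-Aa held the response element at -74 and the Y box core at -50. No match overlapped another, and H2-DMa held none of the 3 motifs in its 2 promoter entries. Over 32851 RefSeq promoters of 300 bases (250 before and 50 after the start), searched on both strands, 2.32% held the X box core, 1.79% the response element and 7.82% the Y box core. An X box core followed by a Y box core on the same strand was found in 16 promoters (0.0487%), and these include H2-Eb1, H2-DMb1, H2-DMb2 and their relative H2-Eb2. Among the others were the promoters of G3bp2 and Prpf38b, so the letters are not limited to class II genes.

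Values are the deposited normalized reads, that is (reads + 0.5) per 1000000 reads of each scaled library. The samples contained between 12688968 and 15659847 recovered reads, and 3 reads corresponded to a value between 0.222 and 0.286. Expression of the Cripto gene itself was not analysed here, so its loss in the Cripto KO samples was not checked. In the sample labelled Control 1, Xist was 171 against at most 0.885 in the other 5 samples, and 4 genes of chromosome Y summed to 0.368 against 130 to 159, which goes against its label of male. Lyz2, the lysozyme M gene that drives Cre in these mice, was 11066 in Control 2 and 21.2 to 28.3 in the other samples. Control 2 thus stood apart from Control 1 and Control 3, which share the wild type label. How this bears on the Cre genotype of the samples was not tested. The results that follow are therefore also given without Control 1 and without Control 2 where these change them. All 12 macrophage markers were present, with sums of 21864 to 22183 in Control and 20586 to 22456 in Cripto KO samples. These sums were above those of every other marker list. Presence alone cannot show the identity of the cells, since all 6 fibroblast and all 6 muscle fiber genes were present too. The cells were also sorted on a macrophage marker beforehand. The study describes the samples as biological replicates, the labels do not tie them to animals, and p-values measure the spread between these samples.

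All 10 genes were detected above 3 reads in every sample, and their levels spanned several orders of magnitude. Levels of different genes are compared here per kilobase of annotated transcript. Cd74 was the most abundant of them, at 3726 ± 993 per kb in Control and 3745 ± 156 in Cripto KO MPs (SD, n = 3 each), rank 13 of 12989 genes with a length. H2-Aa followed at 1846 ± 544 and 1855 ± 117, and H2-Ab1 at 1728 ± 567 and 1785 ± 102. Between samples these 2 chains of the I-A molecule overlapped, but within each of the 6 samples H2-Aa was above H2-Ab1, by 1.03 to 1.10 times, a ratio that depends on the transcript lengths used. H2-Eb1, the beta chain of I-E, had 1221 ± 414 and 1290 ± 73.9 per kb, and H2-Ab1 was 1.37 to 1.43 times H2-Eb1 within the 6 samples. Next came Cd83 at 590 ± 11.7 in Control and 500 ± 28.2 in Cripto KO MPs, below the lowest H2-Eb1 sample. H2-DMa (122 ± 13.8 and 115 ± 9.66) and H2-DMb1 (126 ± 21.8 and 118 ± 11), the subunits of H2-DM, had no fixed order, as H2-DMb1 was the higher one in 4 of 6 samples. Cd86 followed at 50.8 ± 3.68 and 43.1 ± 6.10. H2-DMb2 and Ciita were the lowest, with H2-DMb2 at 3.84 ± 0.483 and 4.23 ± 0.111 and Ciita at 1.67 ± 0.551 and 1.49 ± 0.295 per kb.

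The I-A alpha and beta chains showed the same picture in the single samples. H2-Aa (chr17:34282744-34287823, minus strand) had 2704, 2065 and 1477 in Control 1, 2 and 3, and 2081, 2230 and 1967 in Cripto KO 1, 2 and 3. H2-Ab1 (chr17:34257689-34269419, plus strand) had 2814, 2024 and 1444 in Control MPs against 2160, 2290 and 2042 in Cripto KO MPs. Control 1 was the highest and Control 3 the lowest of all 6 samples in both genes, and the 3 Cripto KO values lay between them. The log2 fold change (Control/Cripto KO) was -0.05 for H2-Aa (SE 0.19, 95% interval -0.47 to 0.37, limma adjusted p = 0.962). For H2-Ab1 it was -0.10 (SE 0.20, -0.55 to 0.35, limma adjusted p = 0.922). The I-E beta chain H2-Eb1 (chr17:34305867-34316674, plus strand) had 2766, 1955 and 1393 in Control MPs against 2125, 2288 and 2047 in Cripto KO MPs, again with Control 1 and Control 3 at the ends. Its log2 fold change was -0.13 (SE 0.21, -0.60 to 0.33, limma adjusted p = 0.892). C57BL/6 mice lack a functional I-E alpha chain, and H2-Ea was not analysed here.

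Cd74, the invariant chain, followed the chains it escorts. It had 6585, 5382 and 3794 in Control MPs against 5210, 5527 and 5103 in Cripto KO MPs, with a log2 fold change of -0.04 (SE 0.18, 95% interval -0.45 to 0.36, limma adjusted p = 0.966). Summed over H2-Aa, H2-Ab1, H2-Eb1 and Cd74, the level reached 14868, 11426 and 8107 in Control MPs against 11575, 12335 and 11159 in Cripto KO MPs. The means of the sums, 11467 ± 3381 and 11689 ± 597 (SD, n = 3 each), differed by less than the spread of the Controls (exact permutation test, two-sided p = 0.9, where the smallest possible p is 0.1). These 4 genes took 1.43, 1.10 and 0.783% of the recovered reads in Control MPs against 1.16, 1.19 and 1.11% in Cripto KO samples. In bulk samples, fewer cells that express class II and less class II RNA per cell cannot be told apart. The direction of these differences depended on single samples. Without Control 3 the log2 fold changes became 0.18 for H2-Aa, 0.14 for H2-Ab1, 0.11 for H2-Eb1 and 0.17 for Cd74. Without Control 1, the sample that goes against its label, they were -0.26, -0.34, -0.38 and -0.22. The smallest adjusted p among them in limma without Control 1 was 0.370, in H2-Eb1, and the unadjusted p was 0.031 in H2-Ab1 and 0.018 in H2-Eb1, both then lower in Control. Without Control 2 they were -0.06, -0.10, -0.13 and -0.08, and no direction changed.

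**Figure D1:**
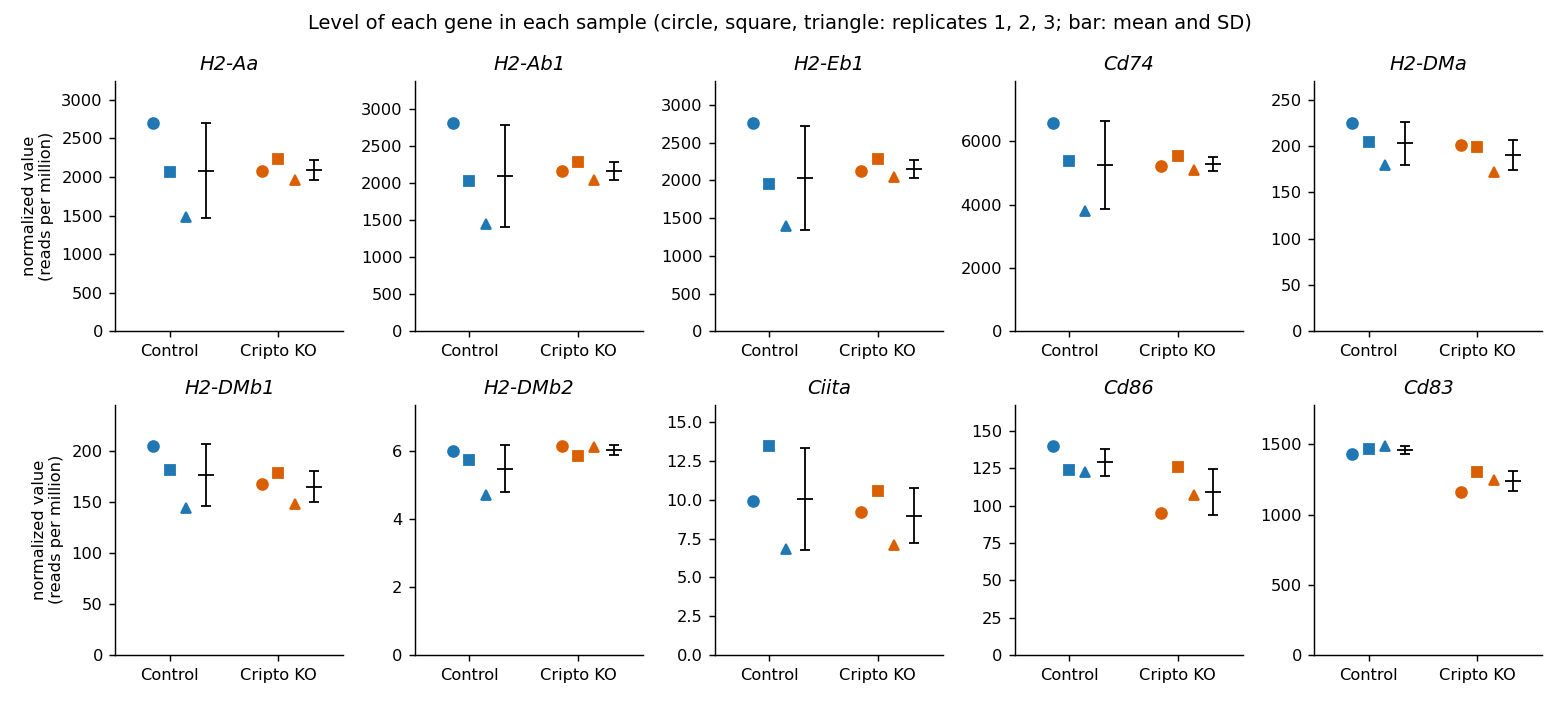
Normalized value (reads per 1000000, linear axis from 0) of each of the 10 genes in the 3 Control (blue) and 3 Cripto KO samples (orange), with the replicates as circle, square and triangle and the mean and SD as a black bar. In H2-Aa, H2-Ab1, H2-Eb1 and Cd74 the Cripto KO samples sit between Control 1 and Control 3, and only Cd83 has every Control above every Cripto KO sample.

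H2-DM, the peptide exchange factor, showed the order of the Controls in a smaller range. H2-DMa (chr17:34119541-34139101, plus strand) had 225, 204 and 179 in Control MPs against 201, 198 and 172 in Cripto KO MPs, with a log2 fold change of 0.09 (SE 0.097, 95% interval -0.13 to 0.31, limma adjusted p = 0.835). H2-DMb1 (chr17:34153072-34160230, plus strand) had 204, 181 and 144 in Control MPs against 168, 179 and 148 in Cripto KO MPs (0.09, SE 0.13, -0.20 to 0.37, limma adjusted p = 0.884). The groups overlapped in both genes, and without Control 1 the value of H2-DMa became 0.0094 and that of H2-DMb1 became -0.028. Without Control 3 they were 0.17 and 0.23. H2-DMb2 (chr17:34143307-34151555, plus strand), the second beta chain gene, had 6.00, 5.71 and 4.69 in Control MPs against 6.13, 5.84 and 6.10 in Cripto KO samples (-0.15, SE 0.16, -0.52 to 0.22, limma adjusted p = 0.836). The split between both beta genes is uncertain, since 31.4% of the 31-base words of H2-DMb1 transcripts also occur in H2-DMb2, and 29.7% of those of H2-DMb2 in H2-DMb1. Of the words of H2-DMa, 9.23% are shared with its neighbour Brd2. In the other 7 genes at most 2.77% of words were shared with any gene. H2-DMa, both beta genes and the 3 class II chains lie in 1 cluster (chr17:34119541-34316674 on GRCm38).

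Ciita (chr16:10480059-10528418, plus strand), the coactivator of the class II genes, was a weakly expressed gene with 83 to 177 reads per sample. It had 9.90, 13.4 and 6.81 in Control MPs against 9.24, 10.6 and 7.07 in Cripto KO samples, with a log2 fold change of 0.13 (SE 0.25, 95% interval -0.43 to 0.69, limma adjusted p = 0.916). Its order differed from that of the class II chains, as Control 2, and not Control 1, was the highest sample. Control 3 was the lowest here too. Leaving out Control 2 turned the value to -0.11.

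The T cell co-stimulatory ligand Cd86 and the activation marker Cd83, which protects class II and CD86 from ubiquitination, were the genes whose Control means lay farthest above the Cripto KO means. Cd83 (chr13:43784775-43803132, plus strand) had 1429, 1467 and 1485 in Control MPs against 1163, 1301 and 1249 in Cripto KO MPs. All Controls were above all Cripto KO samples, which was the case for 8.02% of all genes, while 6.43% had all Controls below. The log2 fold change was 0.24 (SE 0.074, 95% interval 0.07 to 0.41, limma unadjusted p = 0.010), and it did not pass the adjusted threshold (adjusted p = 0.450). Without Control 1 it was 0.26 (limma adjusted p = 0.307) and without Control 2 it was 0.24 (limma adjusted p = 0.589). Cd86 (chr16:36603869-36666081, minus strand) had 140, 124 and 123 in Control MPs against 95.2, 126 and 107 in Cripto KO samples, so that Cripto KO 2 lay within the Controls. Its log2 fold change was 0.25 (SE 0.10, 0.01 to 0.48, limma unadjusted p = 0.043, adjusted p = 0.559), and it was 0.19 without Control 1, 0.27 without Control 2 and 0.15 without Cripto KO 1. In neither gene was Control 3 the lowest sample, as it was for the class II chains.

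**Figure D2:**
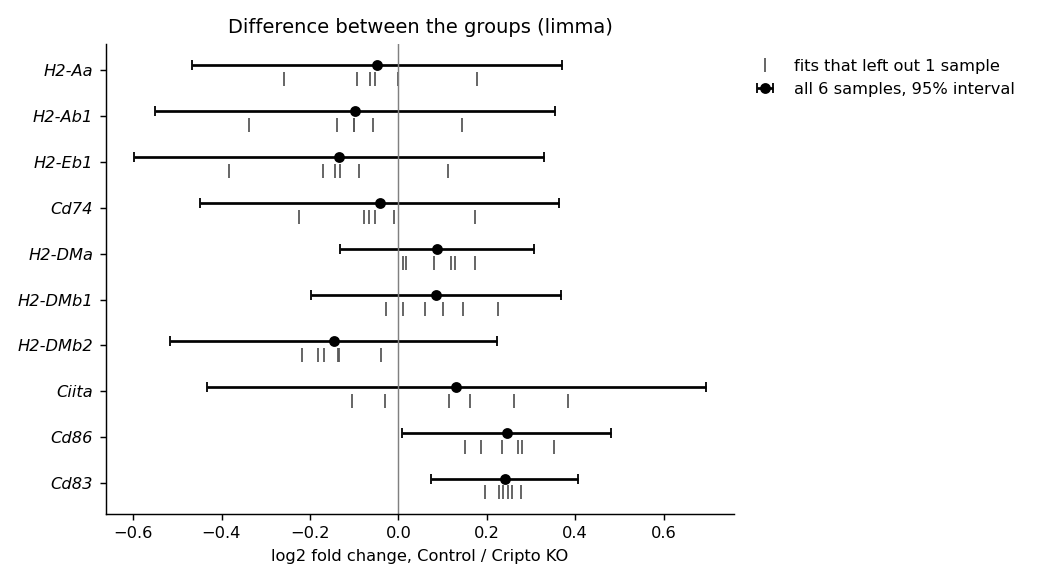
Log2 fold change (Control/Cripto KO, x axis) of each gene in limma over all 6 samples (point, with its 95% interval) and in 6 fits that each left out 1 sample (grey ticks). The intervals of Cd83 (0.07 to 0.41) and Cd86 (0.01 to 0.48) lie above 0 before adjustment for multiple tests, and the ticks of H2-Aa, H2-Ab1, H2-Eb1, Cd74, H2-DMb1 and Ciita fall on both sides of 0.

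Of the 10 genes, 0 had an adjusted p under 0.05 in limma, beside 0.131% of all genes (17 of 13008). At an unadjusted p under 0.05 there were 2, Cd83 and Cd86. Of 18 fits, alternatives included, Cd83 was under that threshold in 18 and Cd86 in 7, and H2-Ab1 and H2-Eb1 were under it in 1, the fit without Control 1. Cd83 and Cd86 were higher in Control, as were 4.60% of all genes at that threshold. The edgeR and DESeq2 fits called 0 of the 10 genes as well. The log2 fold change was above 0 in 5 genes and below 0 in 5. Its median was 0.02, and that of all genes was 0.01. Of the genes, 9 had overlapping groups, and over all genes 14.5% had groups without overlap in either direction.

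The spread within the Controls was wider in the class II chains than in most genes with a mean value of at least 100. For H2-Eb1 the highest Control was 1.99 times the lowest (log2 range 0.99), against 1.12 times among Cripto KO samples (0.16). The same ranges were 0.96 and 0.17 in H2-Ab1, 0.87 and 0.18 in H2-Aa and 0.80 and 0.12 in Cd74. Among the 1666 such genes, not matched further on abundance, the median range was 0.18 in Control and 0.15 in Cripto KO samples. The Control ranges of Cd74, H2-Aa, H2-Ab1 and H2-Eb1 stood at percentiles 97.9, 98.5, 98.9 and 99.0 of these genes, and their Cripto KO ranges at percentiles 34.3, 63.0, 56.7 and 54.7. In 16 of these genes (0.960%) the Control range was at least that of H2-Eb1. The wide range did not rest on Control 1 alone. Without it, Control 2 and Control 3 still differed by 0.48 in H2-Aa, 0.49 in H2-Ab1, 0.49 in H2-Eb1 and 0.50 in Cd74, at percentiles 98.4 to 98.9 of the same measure over these genes. Without Control 3, the differences were 0.39, 0.48, 0.50 and 0.29, at percentiles 78.5 to 93.8. H2-DMb1 (0.51 and 0.27) and H2-DMa (0.33 and 0.22) were at percentiles 93.1 and 78.8 in Control. The ranks run the other way for the remaining pair. The Control range of Cd83 was 0.06 (percentile 7.56), and that of Cd86 was 0.19 in Control (percentile 51.9) and 0.40 in Cripto KO samples (percentile 92.3). The difference in spread between the groups was not tested, since it was noticed in these samples.

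**Figure D3:**
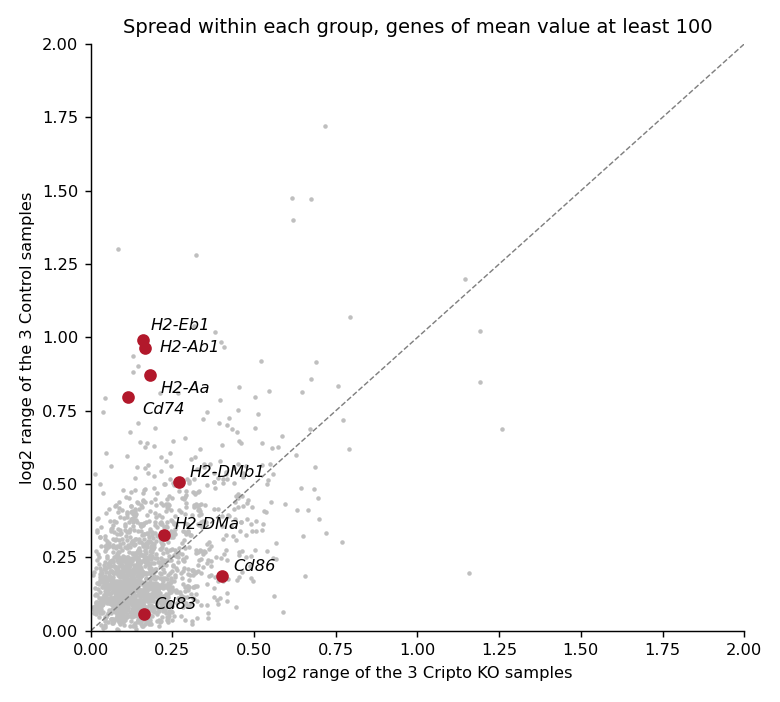
Log2 range of the 3 Control samples (y axis) against that of the 3 Cripto KO samples (x axis) for genes of mean value at least 100 (grey), with 8 of the 10 genes in red and equal ranges as a dashed line. 4 genes lie beyond the axes, which end at 2. H2-Aa, H2-Ab1, H2-Eb1 and Cd74 stand at the upper left, with a Control range of 0.80 to 0.99 and a Cripto KO range of at most 0.18.

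The class II chains kept their proportions while their level varied among the Controls. The log2 ratio of H2-Aa to H2-Ab1 was -0.06, 0.03 and 0.03 in Control MPs against -0.05, -0.04 and -0.05 in Cripto KO MPs, a range of 0.09 over the 6 samples where each gene alone ranged over 0.87 or more in Control. The ratio of Cd74 to the sum of both I-A chains ranged over 0.14, and that of H2-DMa to the sum of both beta genes over 0.17. No difference between the groups in these ratios passed the test (exact permutation tests, two-sided p = 0.4, 0.6 and 0.9, adjusted over 5 ratios p = 0.667, 0.75 and 0.9). For H2-Aa to H2-Ab1 the difference was 0.050 with all samples and 0.079 without Control 1. Both remaining Controls then lay above all Cripto KO samples (exact permutation test, two-sided unadjusted p = 0.1, the smallest possible). For the other 2 ratios p was 0.2 and 0.6 in the same test without Control 1. Relative to Cd74, Cd86 was higher in Control by 0.29 and Cd83 by 0.28 on the log2 scale (exact permutation tests, two-sided p = 0.2 and 0.4, adjusted p = 0.667 for both). These ratios ranged over 0.83 and 0.85 across the samples, close to the Control range of Cd74 itself. Without Control 1 the differences were 0.41 and 0.48, and without Control 3 they were 0.10 and 0.054. Of the 10 genes, 7 were highest in Control 1 and 7 were lowest in Control 3. For the 6 genes H2-Aa, H2-Ab1, H2-Eb1, H2-DMa, H2-DMb1 and Cd74, these counts were 6 and 5, the exception being H2-DMa, which was lowest in Cripto KO 3.

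**Figure D4:**
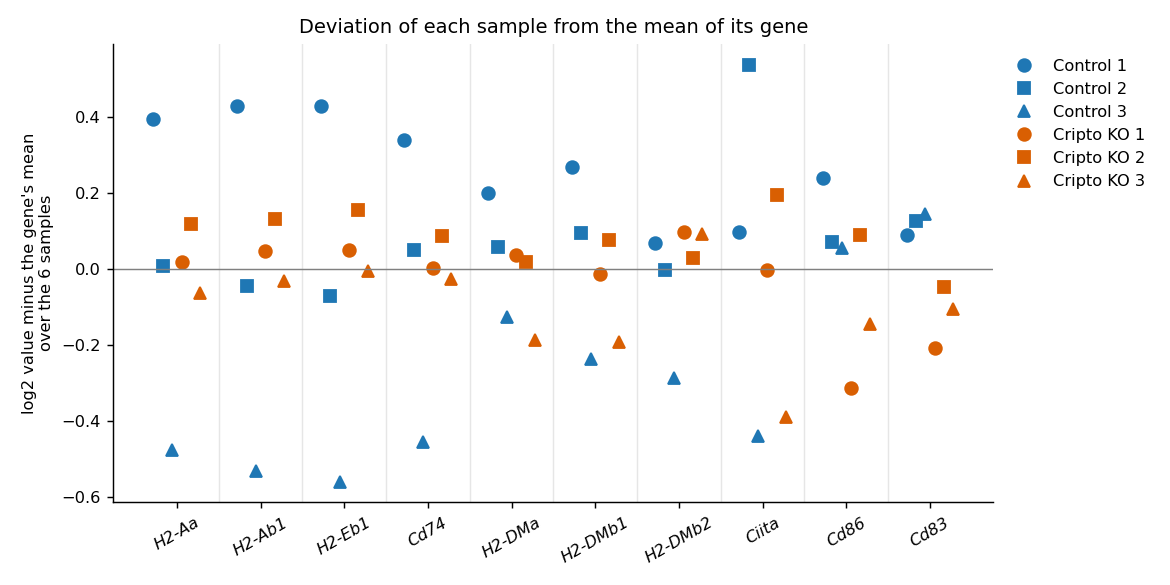
Deviation of each sample from the mean of its gene (log2, y axis) for the 10 genes, with Control samples in blue, Cripto KO samples in orange and replicates 1, 2 and 3 as circle, square and triangle. Control 1 lies 0.34 to 0.43 above and Control 3 lies 0.45 to 0.56 below the mean in H2-Aa, H2-Ab1, H2-Eb1 and Cd74, whereas all Controls are above the mean in Cd83.

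The mean log2 profile of those 6 genes was compared with 7722 genes of mean value at least 10, by root mean square distance over the 6 samples. The profile itself had a size of 0.22. The nearest genes were Cbr3, a carbonyl reductase (distance 0.066), Aebp2, a cofactor of the polycomb complex (0.074), Slamf8, a receptor of myeloid cells (0.081), Grasp (0.083) and Sssca1 (0.094). Slamf8 had 26.3, 23.3 and 16.9 in Control MPs against 19.9, 22.5 and 21.2 in Cripto KO samples, a Control range narrower than that of H2-Aa. With 6 samples such a likeness describes these libraries alone.

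Markers of other class II-expressing cells were read beside the class II level. Of 20 dendritic cell markers 15 were in the table, and their sum was 1425 to 1669 in Control and 1577 to 1750 in Cripto KO samples, with its lowest value in Control 1, where class II was highest. Most of this sum came from 2 genes, Sirpa and Itgax (940 and 202 in Control 1), so it says little about the other markers. Among the defining markers Flt3, Zbtb46, Xcr1, Ccr7 and Cd209a, all values lay near 0, between 0.204 and 3.97. Their sum was 10.7, 7.38 and 7.47 in Control MPs against 8.29, 8.81 and 9.06 in Cripto KO samples, and it was highest in Control 1. Clec9a, the remaining defining marker, was not analysed here. Clec10a, a lectin of dendritic cells and of alternatively activated MPs, had 199, 141 and 98.1 in Control MPs against 172, 132 and 135 in Cripto KO MPs, thus Control 1 was highest and Control 3 lowest, as for class II. The same ends were seen in 4 of the 15 genes in all, the others being Flt3, Irf4 (9.53 and 5.84 in Control 1 and 3) and Cd209a (3.35 and 0.939). In 2 abundant genes of the list, Itgax (202, 329 and 278 in the Controls) and Sirpa (940, 1120 and 1068), Control 1 was instead the lowest of the 6 samples. Of 11 B cell markers 8 were in the table, with sums of 166 to 210 in Control and 169 to 199 in Cripto KO samples. Cd79a and Igkc were at or under 3 reads in every sample, whereas Cd79b went from 10.9 in Control 1 to 5.92 in Control 3, and Ighm was lowest in Control 1 (67.6, 103 and 75.2 in the Controls). The part of such cells in the spread of class II among Controls was not tested.

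The genes that act around class II did not pass the adjusted threshold in limma in any of 4 lists. Of the genes for peptide supply and loading, 16 of 23 were in the table, with 0 at an unadjusted p under 0.05 and a median log2 fold change of 0.07. The lysosomal proteases Ctsz (0.14, limma adjusted p = 0.690) and Ctsl (-0.13, limma adjusted p = 0.740) had the smallest p there. Ctss, the protease that degrades the invariant chain, had 7192, 7061 and 7203 in Control MPs against 6405, 7084 and 6549 in Cripto KO MPs, without the order of the class II chains. All 14 transcription factors of the class II promoter were present, with 0 at an unadjusted p under 0.05 and a median of 0.07. Nfya, a subunit of the factor that binds the Y box, had 0.17 (limma adjusted p = 0.671), and Creb1, a factor of the response element, had 0.15 (limma adjusted p = 0.728). Rfx5, of the complex on the X box, had 5.12, 6.70 and 4.20 in Control MPs against 6.45, 3.72 and 3.69 in Cripto KO samples.

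The route from interferon-gamma to Ciita was present with all 15 genes, of which 2 had an unadjusted p under 0.05, both higher in Control (4.60% of all genes), and 3 had all Controls above all Cripto KO samples (8.02% of all genes). The median log2 fold change was 0.07, beside 0.01 over all genes, with 13 of the 15 above 0 and 2 below. Jak1, a kinase of the receptor, had 181, 181 and 187 in Control MPs against 158, 169 and 168 in Cripto KO MPs (log2 fold change 0.15, limma adjusted p = 0.537). Ifngr1, the receptor chain, had a log2 fold change of -0.01, and Irf1 and Irf8 each had 0.02. Of 18 genes of co-stimulation and T cell contact 14 were in the table, with a median of 0.17. Of these, 2 had an unadjusted p under 0.05 and were higher in Control (4.60% of all genes), and 1 was lower (3.99%). The groups did not overlap in 4 with Control higher (8.02% of all genes) and in 2 with Control lower (6.43%). Lgals9, a lectin that binds surface receptors such as Tim-3, had 190, 194 and 184 in Control MPs against 181, 153 and 166 in Cripto KO MPs (0.19, limma adjusted p = 0.533). Pdcd1lg2, a ligand of PD-1, had 1 to 14 reads per sample and a log2 fold change of -1.53 (limma adjusted p = 0.548).

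Marker lists of other cell types moved with the groups in part. All 6 fibroblast genes had a log2 fold change below 0, 5 of them at an unadjusted p under 0.05 in limma (3.99% of all genes were lower in Control at that threshold) and 0 after adjustment, and their sums were 459 to 481 in Control and 540 to 591 in Cripto KO samples. Sums of the 6 muscle fiber genes were 32.9 to 66.6 in Control and 17.8 to 51.9 in Cripto KO samples, and replicate 1 was the highest in either group. Of these genes, 3 (Myh4, Ckm and Tnnt3) had an unadjusted p under 0.05 in limma and were higher in Control (4.60% of all genes), 0 after adjustment. The groups overlapped in Ckm and Tnnt3, and Control 1 was the highest sample in all 3. Reads were few, at 1 to 245 per sample in Myh4, 16 to 191 in Ckm and 29 to 108 in Tnnt3. The median log2 fold change of the list was 0.58. Of the T and NK cell list, 1 of 10 genes was in the table. That gene, Cd4, had 95.1, 80.5 and 74.6 in Control MPs against 62.3, 77.6 and 64.0 in Cripto KO samples. Sums of the other lists overlapped between the groups, with 5 neutrophil genes at 98.5 to 105 and 93.0 to 101, 5 endothelial genes at 38.8 to 48.5 and 39.9 to 46.6, and 6 Ly6C-high monocyte genes at 85.4 to 112 and 94.1 to 107. Their part in the values of Cd83 and Cd86 was not tested.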

How the data were processed

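Ly6C-low MPs from injured muscle were profiled by RNA-seq (NEBNext Ultra libraries) in 3 Control and 3 Cripto KO samples. The authors trimmed reads with Cutadapt 1.7.1, discarded those under 30 bp, mapped them to the GRCm38 transcriptome (release 91), quantified them with RSEM 1.2.20 and normalized them with LIMMA. Each deposited value is a normalized signal, namely (reads + 0.5) per 1000000 of a scaled library size, from which whole reads came back for 100.0% of 78048 values (within 0.01 read). No value was 0. The strand setting of the counting is not given in the sources used here.

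The main test was limma 3.58.1 (lmFit, eBayes with trend; R 4.3.3) on log2 values with no added pseudocount for the 13008 genes, with Benjamini-Hochberg adjustment and fold changes as log2(Control/Cripto KO). The edgeR quasi-likelihood test (4.0.16) on the recovered reads called 17 genes, and DESeq2 (1.42.0) was an alternative. Sums and ratios were compared by exact permutation tests. The alternatives tried were a pseudocount (0.5 or 1), a minimum mean value of 1, median centring, quantile normalization, eBayes without trend or with the robust option, voom, a replicate block, and fits without each sample in turn. The ranges without each Control were added after the data were seen. Fits were tested on simulated data first. The 10 genes, the gene lists and the tests were chosen with earlier results of these data known.

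Named are the 10 genes, the 5 nearest to the class II profile and, in each pathway list, the genes with an adjusted p under 0.05 or, where fewer than 2, the 2 with the smallest p. Some genes that these rules and lists hold are not reported here. Ctss, Rfx5, Itgax, Sirpa, Flt3, Cd209a, Cd79a, Igkc, Ighm, Cd4, Myh4, Ckm, Tnnt3, Ifngr1, Irf1, Irf8, Clec10a, Irf4, Cd79b, Cd40, Cd80, Cd274, Ifi30, Lgmn, H2-Ob and H2-Eb2 were added after their values were seen. Positions are from GENCODE M21 (GRCm38), promoters from RefSeq (GRCm38.p6), and lengths are those of the APPRIS principal transcript, or of the longest where none is marked. A value at 3 reads or fewer was taken as the floor, which covers counting error only. H2-Ea, H2-Ea-ps, H2-Oa and the gene for Cripto were not analysed here.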

Additional observations from a re-analysis of the deposited data

How the results depend on the processing

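None of the 10 genes had an adjusted p under 0.05 in any of the 17 alternatives, limma, edgeR and DESeq2 included. The number of all genes called was 17, and it became 6 with quantile normalization, 5 without a trend, 31 with the robust option, 9 with voom, 71 with DESeq2 and 5 to 31 when 1 sample was left out. With a replicate block it was 2. Same-numbered samples did not deviate together (correlations -0.21, -0.0052 and 0), so the numbers were not taken as pairs. When 1 sample was left out, the median log2 fold change of the 10 genes ran from -0.12 to 0.18. The single genes ran from -0.26 to 0.18 in H2-Aa, from -0.34 to 0.14 in H2-Ab1, from -0.38 to 0.11 in H2-Eb1, from -0.22 to 0.17 in Cd74, from -0.028 to 0.23 in H2-DMb1 and from -0.11 to 0.38 in Ciita, each changing sign. The sign of Ciita also changed without Cripto KO 3 (-0.031). The log2 ratio of the summed class II chains and Cd74 ran from -0.26 to 0.17 and was 0.013 without Cripto KO 2. The ratio of H2-DMa to both beta genes ran from -0.043 to 0.044 and was -0.016 without Cripto KO 2. The causes were not tested, beyond fewer samples. Cd83 stayed between 0.20 and 0.28 and Cd86 between 0.15 and 0.35. Over the 11 alternatives with all 6 samples, the adjusted p of Cd83 ran from 0.264 to 0.629 and that of Cd86 from 0.534 to 0.826. The Control ranges of the 3 class II chains and Cd74 fell to between 0.29 and 0.50 without Control 1 or Control 3. Depth limits H2-DMb2 (57 to 96 reads) and Ciita more than the other genes.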

Other observations

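Some other genes of the class II pathway and of T cell contact are given here, all of them with overlapping groups. Cd40, a receptor through which T cells activate antigen-presenting cells, had 38.2, 33.9 and 32.0 in Control MPs against 41.2, 36.3 and 40.6 in Cripto KO MPs (log2 fold change -0.18, limma adjusted p = 0.652). Its direction was the opposite of that of Cd86 and Cd83, though the difference was not tested. Cd80, which like Cd86 binds CD28 and CTLA-4 on T cells, had 20.9, 15.6 and 13.2 in Control MPs against 12.8, 15.2 and 13.5 in Cripto KO MPs. Its log2 fold change was 0.24 (limma adjusted p = 0.732), near those of Cd86 and Cd83, and Control 1 stood above the other 5 samples. Cd274, a ligand of PD-1, had 133 in Control 1 and 89.9 to 105 in the other samples. H2-Ob, the beta chain of the H2-DM inhibitor H2-DO, was weakly expressed at 2.52 to 3.60, and H2-Eb2 had 0 to 9 reads per sample. Ifi30, a lysosomal thiol reductase, had 590, 685 and 700 in Control MPs against 624, 634 and 579 in Cripto KO MPs. In Lgmn, an asparaginyl endopeptidase, Control 3 was the highest sample, at 3891 against 3528 to 3740 in the others, whereas it was the lowest for the class II chains.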
